A study of Homo sapiens with 4 samples.

Results

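The genes described here encode the beta subunits of the sodium-potassium pump, ATP1B1, ATP1B2 and ATP1B3, and the FXYD regulators FXYD1, FXYD2, FXYD5 and FXYD6 that associate with it. They were taken by symbol from the rows of a gene table, with earlier results of these data known but no threshold on a value, and they make up 7 of its 23615 symbols. The study sequenced poly-A RNA of day 14 cardiomyocytes made from RUES2, a human embryonic stem cell line, and asked how cardiomyocytes from cardiac progenitor cells compare with cardiomyocytes obtained by redirecting endothelial cells. Each group had 2 biological replicates, and every library came from an unsorted culture of the same line. In both groups, differentiation was started with activin A at 100 ng/ml and BMP4 at 5 ng/ml, the A100/B5 condition, together with the Wnt activator CHIR-99021. The CPC group followed the cardiac route, to which the study's protocol adds the tankyrase inhibitor XAV-939 (XAV), a suppressor of Wnt/beta-catenin signaling, at 1 µM on day 3 in part of the experiments. Elsewhere the study names day 3 as the point of XAV addition on this route. Whether the sequenced CPC cultures received XAV is not stated in the sources used here. The ECsXAV group was moved on day 2 to endothelial medium with VEGF, bFGF and further BMP4, and received XAV at 2 µM from day 5. The medium and the XAV treatment therefore differed together, and their parts cannot be told apart. Both groups were grown in B27-supplemented medium, later with insulin, until day 14.

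The sodium-potassium pump moves sodium out of the cell and potassium in at the cost of ATP, and it sets the ion gradients on which the cardiac action potential and sodium-calcium exchange depend. Its catalytic alpha subunit binds ATP and the ions, while the beta subunit is a glycoprotein that the alpha subunit needs for folding, delivery to the membrane and potassium handling. FXYD proteins are small, single-span membrane proteins that adjust the ion affinity or turnover of the pump. FXYD1, or phospholemman, is the heart and skeletal muscle member and is phosphorylated by protein kinases A and C.

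The FXYD proteins are named for a short motif just outside the membrane. The coding sequence of the motif and its flanks shows how far these regulators, whose RNA levels are compared here, differ in that stretch. The lines give 66 coding bases of each gene, 5′ to 3′ on the coding strand, read from the canonical transcripts of GENCODE 44 on GRCh37. Capitals mark the 12 bases that encode the motif.
FXYD1: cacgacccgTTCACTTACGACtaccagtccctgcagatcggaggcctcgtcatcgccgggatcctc
FXYD2: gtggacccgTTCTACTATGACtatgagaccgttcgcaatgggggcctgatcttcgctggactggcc
FXYD5: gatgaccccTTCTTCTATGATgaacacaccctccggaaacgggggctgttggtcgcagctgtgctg
FXYD6: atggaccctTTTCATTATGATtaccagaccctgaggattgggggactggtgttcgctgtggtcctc

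The windows span chr19:35631515-35632082 on the plus strand for FXYD1, chr11:117693149-117693412 on the minus strand for FXYD2, chr19:35657056-35657200 on the plus strand for FXYD5 and chr11:117712534-117712723 on the minus strand for FXYD6. Each span holds an intron, because in all 4 genes the window is split between 2 exons. The motif begins at base 85 of the FXYD1 coding sequence, at base 55 in FXYD2 and at base 88 in FXYD6. In FXYD5, which has a long extracellular part, it begins at base 403. FXYD1 and FXYD6 were the closest pair, with 68.2% of the 66 bases identical, and FXYD1 and FXYD5 the most distant, with 56.1%. No 50-base stretch of any member's transcripts occurred in those of another member, so a read of that length would not fit more than one of them. FXYD1 and FXYD5 lie on the same strand of chromosome 19 with 11619 bases between them, and FXYD2 and FXYD6 lie on the same strand of chromosome 11 with 8277 bases between them. ATP1B1 lies at chr1:169074935-169280230, ATP1B2 at chr17:7549945-7561088 and ATP1B3 at chr3:141594966-141645391, all on the plus strand.

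Expression was measured as FPKM, the fragments of a gene divided by its length and by the mapped fragments of the library, so levels may be compared between genes. Values are given for ECsXAV replicates 1 and 2 and then for CPC replicates 1 and 2, and means carry the SD of the 2 libraries. In both groups ATP1B1 was the highest of the 7 genes, and ATP1B2, ATP1B3, FXYD5 and FXYD2 followed in that order below FXYD1 and FXYD6. The exchanged places were those of the 2 leading regulators, with FXYD6 above FXYD1 in ECsXAV and FXYD1 above FXYD6 in CPC. No neighbours in either order overlapped between their 2 libraries. By its mean level over all libraries, ATP1B1 stood at percentile 98.7 of the tested genes, FXYD1 at 97.3, FXYD6 at 97.1 and ATP1B2 at 93.0, against 72.9 for ATP1B3 and 26.4 for FXYD5.

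**Figure D1:**
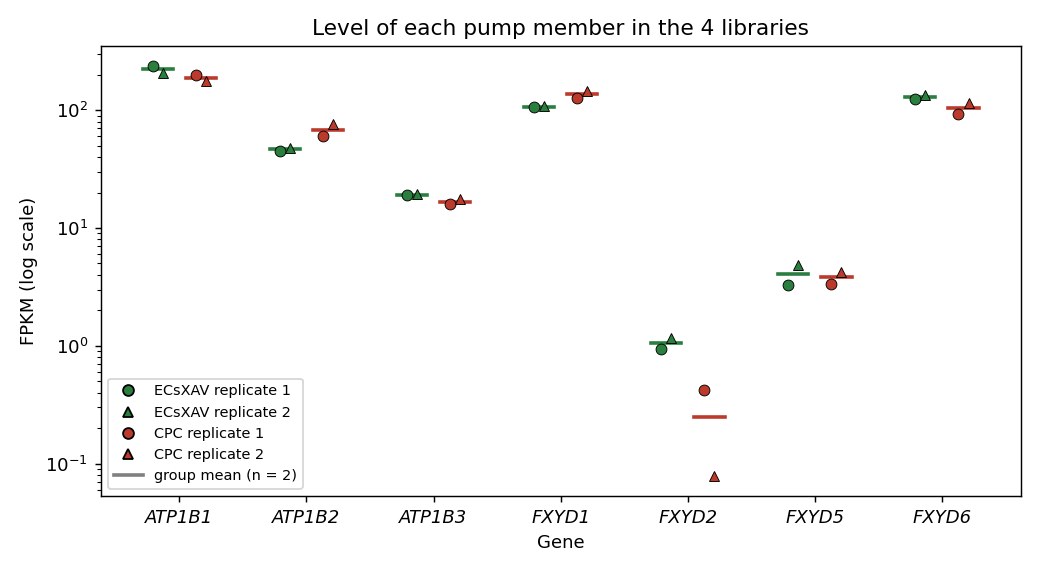
Level of each pump member in the 4 libraries, in FPKM on a log axis; circles are replicate 1, triangles replicate 2, green ECsXAV, red CPC, and bars the group means (n = 2). ATP1B2 and FXYD1 are higher in both CPC libraries than in either ECsXAV library, FXYD5 overlaps between the groups, and FXYD2 lies near or below 1 FPKM in all of them.

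Genes were compared between the groups with limma on log2(FPKM + 1), and a gene was taken as different when its adjusted p was below 0.05 and its fold change above 2. Of the 7 members, 6 had the mean of at least 1 FPKM that the test required, and 0 of these 6 met the criterion, beside 2.15% of all 12398 tested genes (0.71% higher in CPC and 1.44% lower). At an unadjusted p below 0.05, limma gave 2 members, ATP1B2 and FXYD1, where 18.2% of all tested genes reached that level. The groups did not overlap for 5 of the 6, against a background of 49.8%. The 95% interval of the fold change stayed within 2-fold for all 6, as it did for 87.7% of the tested genes. Of the 6, 2 were higher in CPC and 4 lower, with a median log2 fold change of -0.12 beside -0.0045 over all tested genes. These are bulk measurements of unsorted cultures, in which fewer cells of a type and less RNA per cell cannot be told apart.

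Among the beta subunits, ATP1B1, the main partner of the alpha subunit in heart and kidney, was at 235 and 209 FPKM in ECsXAV and at 199 and 178 FPKM in CPC. Both CPC libraries were below both ECsXAV libraries, and the nearest libraries of the groups differed by less than the 2 ECsXAV libraries did from each other. The log2 fold change of CPC over ECsXAV was -0.24 (SE 0.14, 95% interval -0.59 to 0.11, limma adjusted p = 0.448), which did not pass the test. Its exons share 287 bases with exons of NME7 on the opposite strand, a gene at 5.50 to 7.17 FPKM.

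ATP1B2, the beta isoform known from glia as an adhesion molecule, was at 45.4 and 47.6 FPKM in ECsXAV and at 60.8 and 75.6 FPKM in CPC. Both CPC libraries were above the ECsXAV libraries, and they differed more from each other than the ECsXAV pair did. The mean was 46.5 ± 1.54 FPKM (SD, n = 2) in ECsXAV and 68.2 ± 10.5 FPKM in CPC, a ratio of 1.47. The log2 fold change was 0.54 (SE 0.14, 95% interval 0.17 to 0.91), the largest of the 6 tested members, with a limma adjusted p of 0.144. That adjusted p depended on which genes were tested together with it. It was 0.0463 without short RNA genes and genes listed at 0 in one library beside at least 5 FPKM in its replicate. With the replicate block added to that removal, a combination chosen after seeing the data, it was 0.00586. Over the other alternatives that kept all 4 libraries it ran from 0.0936 to 0.180. The fold change remained under 2 in every alternative.

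ATP1B3, the third beta isoform and one that many tissues express, was at 19.0 and 19.4 FPKM in ECsXAV and at 15.9 and 17.6 FPKM in CPC. Both CPC libraries were the lower ones. Its log2 fold change was -0.19 (SE 0.11, 95% interval -0.47 to 0.097, limma adjusted p = 0.458), which did not pass the test.

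The shares of 2 beta subunits were separated between the groups while their sum was not. The summed level was 299.8 and 275.6 FPKM in ECsXAV and 275.8 and 271 FPKM in CPC, and these values overlapped. Of that sum, ATP1B2 made up 15.1% and 17.3% in ECsXAV and 22.0% and 27.9% in CPC, a difference of 8.78 percentage points between the means. ATP1B1 made up 78.5% and 75.7% in ECsXAV and 72.2% and 65.6% in CPC. Neither share overlapped between the groups, and the exact two-sided permutation test gave p = 0.333 for each, the smallest value that 2 libraries against 2 allow. The share of ATP1B3 overlapped, at 6.32% and 7.03% in ECsXAV and 5.77% and 6.49% in CPC. Expressed as a ratio, ATP1B1 exceeded ATP1B2 by 5.19 and 4.39 times in ECsXAV and by 3.27 and 2.35 times in CPC.

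**Figure D2:**
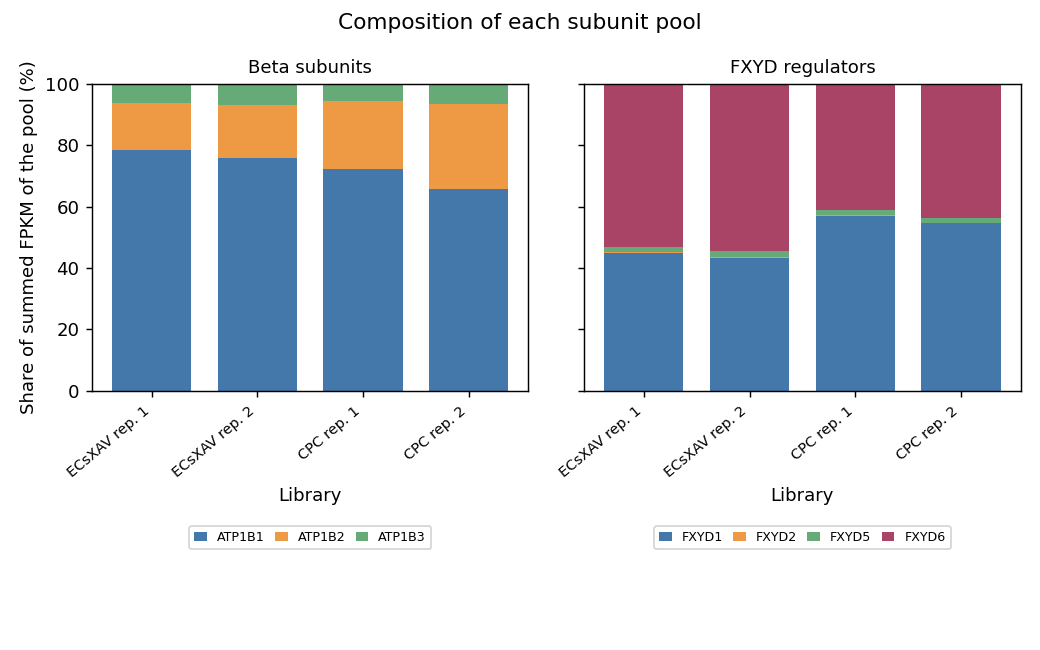
Share of each gene in the summed FPKM of its pool, in percent, for the beta subunits and the FXYD members, with 1 bar for each of the 4 libraries. The ATP1B2 part of the beta pool is 22.0% and 27.9% in CPC against 15.1% and 17.3% in ECsXAV, and FXYD1 takes the largest part of the FXYD pool in CPC and FXYD6 in ECsXAV.

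FXYD1, the cardiac phospholemman, was at 106 and 108 FPKM in ECsXAV and at 128 and 146 FPKM in CPC. Both CPC libraries were above both ECsXAV libraries. Its log2 fold change was 0.35 (SE 0.12, 95% interval 0.034 to 0.67), and the limma adjusted p was 0.232. It was 0.0468 with the replicate block and the removal of short RNA genes together, a combination chosen after seeing the data. Over the other alternatives that kept all 4 libraries it ranged from 0.104 to 0.271. The fold change stayed under 2 in every alternative. Cardiac troponin T, TNNT2, which marks the cardiomyocytes of the cultures, was at 2453 and 2309 FPKM in ECsXAV and 2696 and 2988 FPKM in CPC, and it was the 1 of 6 cardiomyocyte markers with a higher mean in CPC. Divided by TNNT2, FXYD1 was 0.0430 and 0.0467 in ECsXAV and 0.0473 and 0.0488 in CPC. Divided by the sum of all 6 markers, it was 0.00786 and 0.00835 in ECsXAV and 0.0117 and 0.0124 in CPC. That sum is mostly MYL7, at 8786 and 8535 FPKM in ECsXAV and 6701 and 7142 FPKM in CPC. Divided by MYL7 alone, FXYD1 was 0.0120 and 0.0126 in ECsXAV and 0.0190 and 0.0204 in CPC. None of these ratios overlapped between the groups, and the size of the difference depended on the marker chosen. On the same strand, 502 exon bases of FXYD1 are shared with a long noncoding RNA, which holds 22.4% of the 50-base stretches of its transcripts, and 451 are shared with a model on the opposite strand, which holds 15.1%.

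FXYD6, or phosphohippolin, a regulator known from brain, was at 125 and 136 FPKM in ECsXAV and at 92.3 and 116 FPKM in CPC. Both CPC libraries were lower, and they differed from each other by more than the nearest libraries of the groups did. On the log2 scale the fold change was -0.33 (SE 0.15, 95% interval -0.73 to 0.069, limma adjusted p = 0.353), which did not pass the test. Its exons share 625 bases with those of FXYD6-AS1 on the opposite strand.

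FXYD1 and FXYD6 together held nearly all of the FXYD pool, and their order was exchanged between the groups. FXYD1 made up 44.9% and 43.2% of the summed FPKM of the 4 FXYD members in ECsXAV and 57.1% and 54.7% in CPC. FXYD6 made up 53.3% and 54.4% in ECsXAV and 41.3% and 43.7% in CPC. The mean share of FXYD1 was 44.1 ± 1.22% in ECsXAV and 55.9 ± 1.65% in CPC (SD, n = 2), a difference of 11.8 percentage points, with an exact two-sided permutation p of 0.333, again the smallest this design allows. The ratio of FXYD1 to FXYD6 was 0.843 and 0.794 in ECsXAV and 1.38 and 1.25 in CPC. The summed level overlapped between the groups, at 235 and 249.7 FPKM in ECsXAV and 224 and 266 FPKM in CPC. The ratio of the summed FXYD members to the summed beta subunits overlapped as well, with means of 0.845 ± 0.0866 in ECsXAV and 0.897 ± 0.121 in CPC (SD, n = 2).

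FXYD5, or dysadherin, which is known from epithelia and for its effect on cell adhesion, was at 3.26 and 4.81 FPKM in ECsXAV and at 3.37 and 4.24 FPKM in CPC. The groups overlapped. Replicate 2 was the higher library in each, as it was for ATP1B2, ATP1B3, FXYD1 and FXYD6, while for ATP1B1 it was replicate 1. The log2 fold change of FXYD5 was -0.054 (SE 0.20, 95% interval -0.58 to 0.47, limma adjusted p = 0.918), and its sign turned when ECsXAV replicate 2 (0.17) or CPC replicate 1 (0.077) was left out.

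FXYD2, the gamma subunit of the pump in the kidney, was at 0.934 and 1.17 FPKM in ECsXAV and at 0.422 and 0.0787 FPKM in CPC. Both CPC libraries were the lower ones, but the mean over the 4 libraries was 0.651 FPKM, below the level at which genes were tested. With no filter on low values its log2 fold change was -0.73, with a limma adjusted p of 0.161. FXYD2 has 392 exon bases in common with the readthrough gene FXYD6-FXYD2, which joins the 2 genes on chromosome 11, and FXYD6 has 390. That gene was at 0.286, 0.358, 4.9e-25 and 0.532 FPKM in the 4 libraries. This was below FXYD2 in 3 libraries, above it in CPC replicate 2, and far below FXYD6 in all 4. How fragments were divided between these overlapping models is not given in the sources used here.

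**Figure D3:**
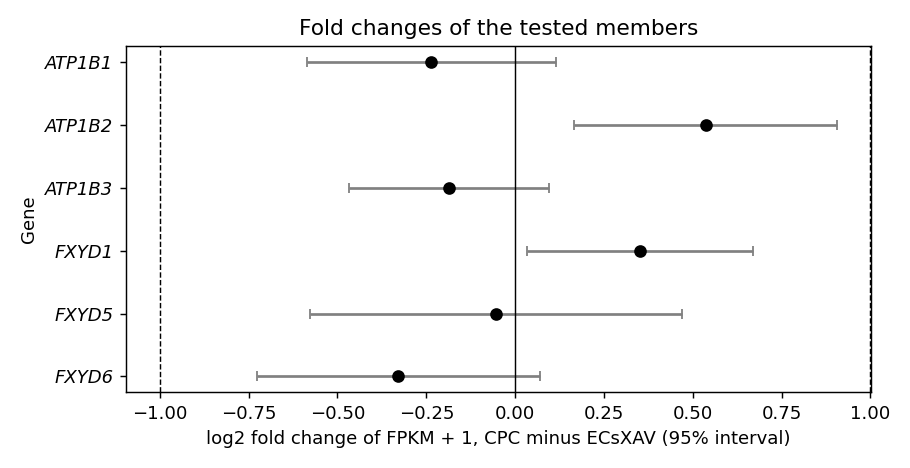
The log2 fold change of FPKM + 1, CPC minus ECsXAV, with its limma 95% interval for the 6 tested members; dashed lines mark 2-fold. All 6 member intervals lie between the dashed lines, and those of ATP1B2 and FXYD1 are above 0.

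At the level of transcripts, each beta subunit was represented by 1 RefSeq model, NM_001677 for ATP1B1, NM_001678 for ATP1B2 and NM_001679 for ATP1B3. FXYD1 had 2 models. NM_021902 carried 94.2% and 93.0% of its FPKM in ECsXAV and 94.4% and 98.4% in CPC, with a log2 fold change of 0.39 (limma adjusted p = 0.356 over 16504 tested transcripts). The minor model NM_005031 was at 6.07 and 7.52 FPKM in ECsXAV and 7.15 and 2.39 FPKM in CPC, and the groups overlapped. NM_001164831 held 98.4% to 99.7% of FXYD6, NM_014164 held 96.3% to 99.0% of FXYD5, and NM_001680 held 97.7% to 99.6% of FXYD2. Of the 7 member transcripts with a mean of at least 1 FPKM, 0 passed the criterion, which 0.0727% of all tested transcripts met. At an unadjusted limma p below 0.05 there were 2, NM_001678 of ATP1B2 and NM_021902 of FXYD1. The share of all tested transcripts at that level was not counted. These models carry all or most of the FPKM of the 2 genes already at that level, so they add no separate result.

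**Figure D4:**
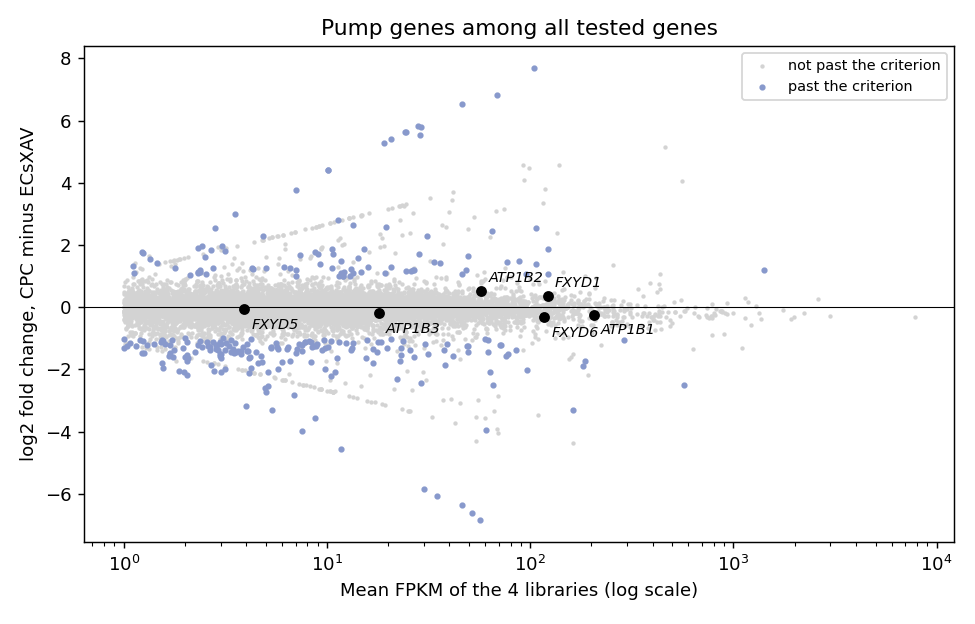
Mean FPKM of the 4 libraries (log axis) against the log2 fold change, CPC minus ECsXAV, for all 12398 tested genes, with genes past the criterion in blue and the 6 tested members in black. The members lie within the grey body of genes that did not pass.

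The related genes and regulators examined beside the members gave no call. The further beta-type gene ATP1B4 and the proton pump genes ATP4A, ATP4B and ATP12A were below 1 FPKM in every library, with ATP4B, the beta subunit of the stomach proton pump, listed at 0 in all of them, and FXYD3 and FXYD4 were below 1 FPKM too. FXYD7, the neighbour of FXYD1 on chromosome 19, was at 0.530 to 1.23 FPKM. Of the 4 NKAIN genes, whose products bind the beta subunit, NKAIN1 was the tested one, at 1.45 and 2.35 FPKM in ECsXAV and 1.47 and 1.56 FPKM in CPC (log2 fold change -0.19, limma adjusted p = 0.689), and NKAIN3 was listed at 0 in every library.

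The 11 kinase, phosphatase and inhibitor genes that act on phospholemman were all tested, and 0 passed the criterion, with 2 at an unadjusted limma p below 0.05. Over all 12398 tested genes, 2.15% passed the criterion and 18.2% reached that unadjusted level. Of the 11, 3 were higher in CPC and 8 lower, with a median log2 fold change of -0.068. Among all tested genes, 6106 were higher and 6292 lower. PRKCA, protein kinase C alpha, was at 7.46 and 7.19 FPKM in ECsXAV and 5.26 and 4.30 FPKM in CPC, the lowest log2 fold change of the list at -0.53 (limma adjusted p = 0.129, from 0.0208 to 0.621 over the alternatives). PRKACA, a catalytic subunit of protein kinase A, was at 78.4 and 84.1 FPKM in ECsXAV and 85.0 and 105 FPKM in CPC. Its log2 fold change of 0.22 was the highest of the list (limma adjusted p = 0.502). Neither gene overlapped between the groups, and neither passed the test.

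Of 9 transporters that use the sodium or potassium gradient, 8 were tested and 0 passed the criterion, with 1 at an unadjusted limma p below 0.05. The shares over all tested genes were 2.15% and 18.2%. Of the 8, 7 were lower in CPC and 1 higher, with a median log2 fold change of -0.10, beside 6292 lower and 6106 higher among all tested genes. SLC12A4, a potassium-chloride cotransporter, was at 18.3 and 23.4 FPKM in ECsXAV and 10.7 and 11.8 FPKM in CPC, the lowest log2 fold change of the list at -0.83 (limma adjusted p = 0.0725, from 0.000681 to 0.368 over the alternatives). Its fold change stayed under 2 in each of them. SLC8A2, a sodium-calcium exchanger known from brain, was at 1.04 and 0.973 FPKM in ECsXAV and 0.742 and 1.34 FPKM in CPC, the highest at 0.0084 (limma adjusted p = 0.988). The groups did not overlap for SLC12A4 and overlapped for SLC8A2, whose direction turned under 3 alternatives.

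The members did not share one pattern over the 4 libraries, as 2 of the 6 tested were higher in CPC and 4 lower. For each tested member, the gene whose centred log2(FPKM + 1) values lay nearest, by Euclidean distance over the 4 libraries, was taken as the one most like it. This was WASF3 for ATP1B1 (distance 0.0070), ALG5 for ATP1B2 (0.0405) and HMGXB3 for ATP1B3 (0.00745). ZNF48 was nearest to FXYD1 (0.00844), PIM3 to FXYD5 (0.0318) and ISYNA1 to FXYD6 (0.0192). No member was among the 2 nearest genes of another, but with 12398 genes to choose from this cannot show that members moved apart. With 4 libraries, such nearness is a description of these libraries.

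Cardiomyocyte markers were abundant in every library, and some genes of the lists for other cells were higher in the ECsXAV libraries. The sum of 6 cardiomyocyte markers, mostly MYL7 and with TNNT2 among them, was 13429 and 12923 FPKM in ECsXAV and 10935 and 11758 FPKM in CPC. By the criterion, 1 of the 6, MYBPC3, was lower in CPC. The 6 smooth muscle markers summed to 308 and 280 FPKM in ECsXAV and 151 and 179 FPKM in CPC, and 6 stromal markers to 95.2 and 98.2 FPKM and to 57.9 and 62.5 FPKM. In each list 1 gene was lower in CPC by the criterion, TAGLN of smooth muscle and LUM of stroma. Other genes of the 2 lists had higher means in CPC, among them MYH11 at 0.0844 and 0.154 FPKM in ECsXAV and 0.351 and 0.433 FPKM in CPC, and ACTA2 and PDGFRA, which overlapped between the groups. The 6 epithelial and endodermal markers, led by KRT19, summed to 198 and 240 FPKM in ECsXAV and 85.1 and 131 FPKM in CPC, where AFP and TTR passed the criterion. Endothelial markers summed to 10.1 to 12.5 FPKM in all libraries, with 4 of 6 below 1 FPKM in every library. KDR gave 7.06 to 10.8 FPKM of this, with a higher mean in CPC and overlapping groups. CDH5 was at 1.19 and 1.49 FPKM in ECsXAV and 0.875 and 0.649 FPKM in CPC (limma adjusted p = 0.301). TEK was at 0.446 and 0.831 FPKM in ECsXAV and 0.263 and 0.124 FPKM in CPC. Neither CDH5 nor TEK overlapped between the groups, while PECAM1, TIE1 and ERG did. The 6 blood markers summed to 3.24 and 6.03 FPKM in ECsXAV and 0.511 and 0.184 FPKM in CPC, with PTPRC at 0 in all libraries and the embryonic and fetal globin genes HBZ and HBG2 at 0 in CPC. The embryonic globin HBE1 was at 2.13 and 4.55 FPKM in ECsXAV and 0.338 and 0.184 FPKM in CPC (limma adjusted p = 0.0660), which did not pass the criterion. The 6 neural markers summed to 8.79 and 8.78 FPKM in ECsXAV and 9.39 and 7.42 FPKM in CPC, with 3 of 6 below 1 FPKM in every library and 0 past the criterion. Skeletal muscle markers summed to 329 to 463 FPKM, of which CKM gave 309 to 440 FPKM and ACTA1 19.7 to 29.6 FPKM. MYOD1 and MYOG were below 1 FPKM in every library, and MYF5 and MYF6 were at 0. Which cells expressed the genes of these lists was not tested, nor was the part of such cells in the levels of the pump genes. By the steps in the lowest FPKM, ECsXAV replicate 2 had 50.1% of the depth of ECsXAV replicate 1, and the CPC libraries 86.9% and 79.8%. At an equal FPKM, a weakly expressed gene is therefore least precise in ECsXAV replicate 2. Precision also falls with the level, and the lowest FXYD2 value, 0.0787 FPKM, was that of CPC replicate 2.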

How the data were processed

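RNA-seq of 2 ECsXAV and 2 CPC libraries was used as 2 tables of FPKM, per gene and per RefSeq transcript. The authors made these FPKM with Cufflinks 2.1.1 and UCSC gene annotations on hg19, and the submitters' processing notes also name TopHat 1.3.3. The handling of strand and of reads with several alignments is not given for the FPKM in the sources used here. The study tested counts, which were not used here, so limma 3.58.1 in R 4.3.3 was run on log2(FPKM + 1) with an intensity trend and Benjamini-Hochberg adjustment over genes with a mean of at least 1 FPKM. Adding 1 understates the fold change of low genes. Fold changes are CPC over ECsXAV on that scale. Groups and replicate numbers came from the labels, and doses from the study's methods. The total depth is unknown. Relative depth came from the spacing of FPKM between 0.005 and 0.1. The fit was tested on simulated data with known changes.

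The members and gene lists were chosen with earlier results of these data known. Named genes were all 7 members and, in each pathway list, any gene past the criterion and the largest rise and fall. Marker genes were named after their values were seen. Some genes of the pathway lists are not reported here. Shares and ratios were compared with an exact two-sided permutation test. Coordinates, overlaps and sequences came from GENCODE 44 lifted to GRCh37, which is the assembly hg19 carries. The fit was repeated with each library left out, with the replicate number as a block, without the trend, after quantile or median-of-ratios scaling, on the sum of transcripts, with 0.1 added in place of 1, without a filter or with a mean of at least 5 FPKM, and after removal of short RNA genes and of genes listed at 0 in one library beside at least 5 FPKM in its replicate. SciPy 1.17.1, pandas 2.3.3 and matplotlib 3.10.9 were used for tables and figures.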

Additional observations from a re-analysis of the deposited data

How the results depend on the processing

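No pump member passed the criterion under any of the 14 alternatives, in which 82 of the 84 member fold changes kept their direction. FXYD2 entered the fit only without a filter, and FXYD5 not at a mean of at least 5 FPKM. The exceptions were FXYD5 without CPC replicate 1 (0.077) and without ECsXAV replicate 2 (0.17), within a range of -0.28 to 0.17 when 1 library was left out. Settings that changed only the set of tested genes, the trend or the block cannot alter a fold change, so its direction was fixed there. For genes whose groups do not overlap, leaving out a library cannot turn the direction either. The kept directions therefore test little for these genes. When 1 library was left out, values of other genes could change sign. NKAIN1 then ranged from -0.41 to 0.042, the latter without ECsXAV replicate 2. SLC8A2 went from 0.0084 to -0.0077 with a pseudocount of 0.1 and ranged from -0.20 to 0.22 when 1 library was left out. No reported pathway gene passed the criterion under any alternative. The 7 tested member transcripts kept their direction under median-of-ratios scaling.

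Over all tested genes, the count past the criterion was 266 and became 152 with a mean of at least 5 FPKM, 20 with no filter and 176 with the replicate block, and it ranged from 50 (without CPC replicate 1) to 118 (without ECsXAV replicate 2) when 1 library was left out and limma took the lone library to vary like the other group. Without the filter, 12 of the 20 were higher in CPC and 8 lower. The replicate block and the removal of short RNA genes together, chosen after seeing the data, gave 344, and the removal alone 340. Without short RNA genes, the adjusted p of SLC12A4 was 0.0081, and with the block added it was 0.00068 and that of PRKCA 0.0208, at fold changes under 2. The replicate block lost or added no call among the members and pathway genes. Same-numbered libraries deviated from their group means with a Pearson correlation of 0.035 and a Spearman correlation of 0.356 over 12398 genes (Pearson 0.186 without short RNA genes), and the labels do not say that a number marks a shared culture, so with 2 pairs the numbers were not taken as a pairing. Between scalings, the median log2 fold change of all genes moved from -0.0045 to 0.016 at most. Some members moved more. Under quantile scaling, ATP1B1 went from -0.24 to -0.13, FXYD6 from -0.33 to -0.25, FXYD1 from 0.35 to 0.43 and ATP1B2 from 0.54 to 0.59. Without further scaling, the member interval that reached farthest, that of ATP1B2, ended at 0.91 on the log2 scale. A test on counts was not run.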
